A study of Mus musculus with 24 samples.

Results

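The 8 genes described here encode proteins of the small ubiquitin-like modifier (SUMO) system, out of 53465 genes listed in the count table. They were chosen by name. Sumo2 and Sumo3 encode modifiers, Sae1 and Uba2 encode both subunits of the activating enzyme, and Pias1, Pias2, Pias3 and Pias4 encode ligases of the PIAS family. All 8 passed the filter on low counts, which left 14785 genes for testing.

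RNA was measured in mouse adipocytes differentiated in culture from the stromal vascular fraction, the mixed non-adipocyte cells obtained from dissociated fat. The cells came from epididymal white fat (eWAT) or inguinal white fat (iWAT) of Senp2 flox/flox mice (Cont) or of Senp2 flox/flox mice that also carry Adipoq Cre (aKO). The floxed allele was therefore common to every group, and the Cre is driven by the promoter of the adiponectin gene, which is active in differentiated adipocytes and not in their precursors. Each kind of culture received siNS or siC/EBPbeta (siCEBPb in the plots), an siRNA named for C/EBPbeta, a transcription factor of early fat cell differentiation. The labels do not explain siNS, and it was used here as the reference for the siRNA. Differentiation was induced for 2 days with 1 µmol/l dexamethasone, 0.5 mmol/l IBMX and 0.1 mg/ml insulin in 10% FBS, followed by 5 days with 1 µg/ml insulin. Depot, genotype and siRNA gave 8 groups of 3 polyA RNA libraries, 24 in all. Age and sex of the mice, and whether replicates came from separate animals or cultures, were not stated. The p-values below therefore reflect the scatter among these libraries alone, which may be technical.

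SUMO proteins are attached to lysines of other proteins by an enzyme cascade that resembles that of ubiquitin. The Sae1-Uba2 dimer activates SUMO, and ligases such as the PIAS proteins help transfer it to a substrate at the end of the cascade. SENP proteases, Senp2 among them, mature SUMO precursors and remove SUMO from substrates. Sumo2 and Sumo3 encode nearly identical mature proteins that can form chains. C/EBPbeta is a known SUMO substrate, and Pias1 has been linked to its SUMO modification in differentiating fat cells.

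Of the 24 libraries, 23 held between 8435494 and 15388744 gene counts. The iWAT aKO siNS replicate 2 library stood apart, with 603585 gene counts and 95.9% of its reads outside genes, against 27.5 to 39.5% in the other libraries. It held 8 counts of Sumo2 and 14 to 37 counts of each of the other members. Results on which it bears most are also given without it. Cebpb, the gene that the siRNA is named for, fell in all 4 siRNA comparisons, by log2 fold changes of -1.73 to -2.69. With all 24 libraries fitted, Senp2 itself passed edgeR's test in none of the 4 genotype comparisons (log2 fold changes -0.20 to 0.09, adjusted p 0.0519 to 0.731). It lay between 43.7 and 57.4 CPM (counts per 1000000 gene counts, after scaling) over the libraries. In eWAT with siNS its means were 54.5 ± 2.35 CPM in Cont and 47.6 ± 4.82 CPM in aKO (SD, n = 3 each). Of the 9 SUMO proteases tested, Senp2 included, 1 fell in that comparison, where 20.4% of tested genes were called. Without iWAT aKO siNS replicate 2 in the fit, 3 of the 9 fell, and 25.8% of tested genes were called. Counts over the whole gene include exons outside the deleted part and cells that do not express Cre, so they check the genotype labels little, and the groups are called here by their labels. All 12 adipocyte markers examined were detected, and leukocyte, smooth muscle and fibroblast markers were detected too. In such mixed bulk cultures, fewer cells of a type and less RNA per cell cannot be told apart.

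Promoter windows of 250 bases ending just before an annotated start site were taken from RefSeq (GRCm38.p6), where 5 of the 8 members matched with 8 windows. The first windows of Sumo3 and Pias3 are shown because the depot differences of their RNA had opposite signs (values below). With all 24 libraries fitted, edgeR called these differences in none of the 4 depot comparisons of 2 groups, only in an average of them added later. Both windows are given 5′ to 3′ on the plus strand, at chr10:77605847-77606096 and chr3:96696125-96696374, with capitals marking matches to the motifs searched.
Sumo3: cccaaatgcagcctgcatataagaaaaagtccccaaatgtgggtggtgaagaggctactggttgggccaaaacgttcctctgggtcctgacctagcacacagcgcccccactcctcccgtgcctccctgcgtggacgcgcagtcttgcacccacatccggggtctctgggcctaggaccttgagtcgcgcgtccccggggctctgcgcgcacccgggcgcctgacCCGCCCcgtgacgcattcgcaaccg
Pias3: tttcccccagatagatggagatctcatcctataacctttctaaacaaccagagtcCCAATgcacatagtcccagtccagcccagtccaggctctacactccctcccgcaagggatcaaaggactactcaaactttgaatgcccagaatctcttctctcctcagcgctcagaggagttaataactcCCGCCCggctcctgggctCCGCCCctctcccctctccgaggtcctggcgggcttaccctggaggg
The capitals in the Sumo3 window and the CCGCCC matches in the Pias3 window are GC boxes (GGGCGG) read on the other strand, and the CCAAT in the Pias3 window is a CCAAT box. Both strands were searched for these and for CCGGAAGT (an ETS motif) and TTGCNNAA (a C/EBP motif). A GC box was found in 7 of the 8 member windows and in 32.7% of 32851 RefSeq windows of this length. TTGCNNAA was found in 0 of the 8 member windows and in 9.56% of all windows, which says only that these letters are not in the member windows. GC content was 55.6 to 77.6% in the member windows, against a median of 52.4% over all windows.

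On GRCm38 with the GENCODE M21 annotation, Sumo2 (ENSMUSG00000020738) lies on chromosome 11 at 115523102 to 115536276 and Sumo3 (ENSMUSG00000020265) on chromosome 10 at 77606097 to 77618331. Sae1 (ENSMUSG00000052833) and Uba2 (ENSMUSG00000052997) both lie on chromosome 7, at 16320234 to 16387806 and at 34140688 to 34169599. Pias1 (ENSMUSG00000032405) lies on chromosome 9 at 62878368 to 62987924, and Pias2 (ENSMUSG00000025423) on chromosome 18 at 77065208 to 77153800. Pias3 (ENSMUSG00000028101) lies on chromosome 3 at 96696384 to 96706070 and Pias4 (ENSMUSG00000004934) on chromosome 10 at 81153266 to 81167923. Copies elsewhere matter for the modifiers: 19.2% of the 50-base stretches of Sumo2 exons also occur in exons of 14 other annotated genes, pseudogenes such as Gm10241 among them. For Sumo3 the share was 8.70%, mainly through Gm49325, which overlaps 346 exonic bases of Sumo3 on the same strand. Counts of Sumo2 and Sumo3 are uncertain to that extent, since reads from such stretches could be split or dropped. For Uba2 the share was 2.34%, and for the other members it was below 0.5%.

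Per kilobase of exon, Sae1 was the most abundant member, with a median of 37.3 CPM per kilobase over the 23 deeper libraries (range 34.4 to 42.5). Sumo3 followed with a median of 18.4 (16.3 to 24.5) and Sumo2 with 17.4 (15.3 to 21.6). Pias2 stood at 15.1 (13.3 to 17.3) and Uba2, the catalytic partner of Sae1, at 13.0 (12.1 to 14.6). The 3 other ligases were lowest. Pias3 had a median of 9.35 (7.68 to 11.2), Pias4 of 7.13 (6.28 to 10.1) and Pias1 of 5.77 (5.22 to 6.62). In this order Sae1 did not overlap with Sumo3, nor Uba2 with Pias3. Sumo3 and Sumo2 did not separate, since Sumo3 was above Sumo2 in 16 of 23 libraries. At each of the other steps the higher gene led in 22 of 23 libraries. The lengths used were those of all annotated exons of a gene joined, 2597 bases for Sae1 and 6033 for Uba2. They can exceed the length of the transcripts present, so the order depends on them. By median CPM without division by length, Uba2 (78.5) came after Sae1 (96.8) and before Sumo3 (67.4).

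**Figure D1:**
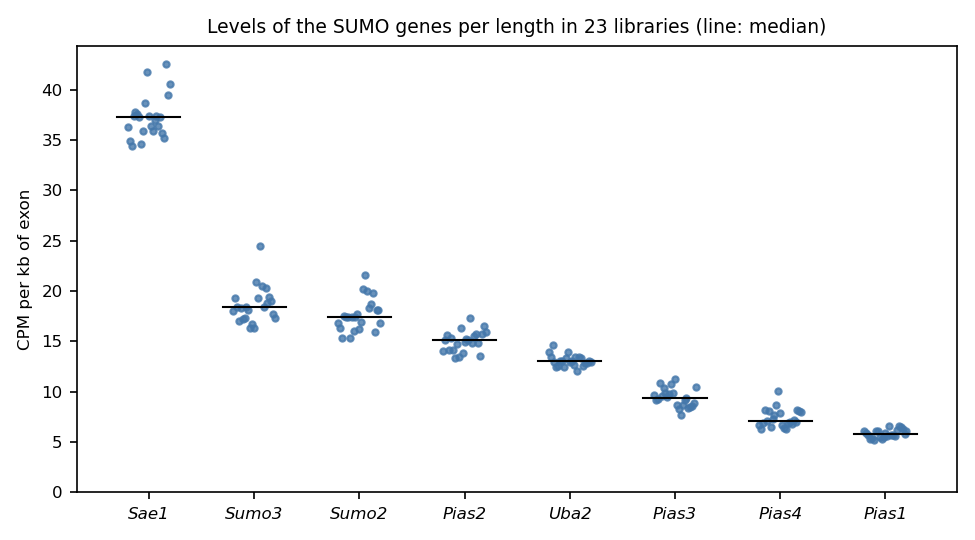
Level of each gene in CPM per kilobase of exon, 1 point per library for the 23 libraries other than iWAT aKO siNS replicate 2. Sae1 lies above every other member in all of them, while Sumo3 and Sumo2 share a range.

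In the 23 deeper libraries the levels of the members varied little between groups. The range of the 8 group means on the log2 scale was 0.15 for Uba2, and 1.77% of the tested genes had a smaller one. It was 0.21 for both Pias2 and Sae1, 0.27 for Sumo2, 0.30 for Pias1, 0.37 for Pias3, 0.38 for Sumo3 and 0.45 for Pias4. The median over all tested genes was 0.54, above all 8 values. That comparison was not matched for level: by median CPM the members ranked from percentile 56.5 (Pias4) to 85.4 (Sae1) of tested genes. The shallow library was left out of these ranges. With it the iWAT aKO siNS means were 55.8 CPM for Sumo3 and 45.8 CPM for Pias3, in place of 69.9 and 33.1 CPM. Between the highest and the lowest of the 23 deeper libraries, levels differed from 1.21-fold for Uba2 to 1.60-fold for Pias4.

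**Figure D2:**
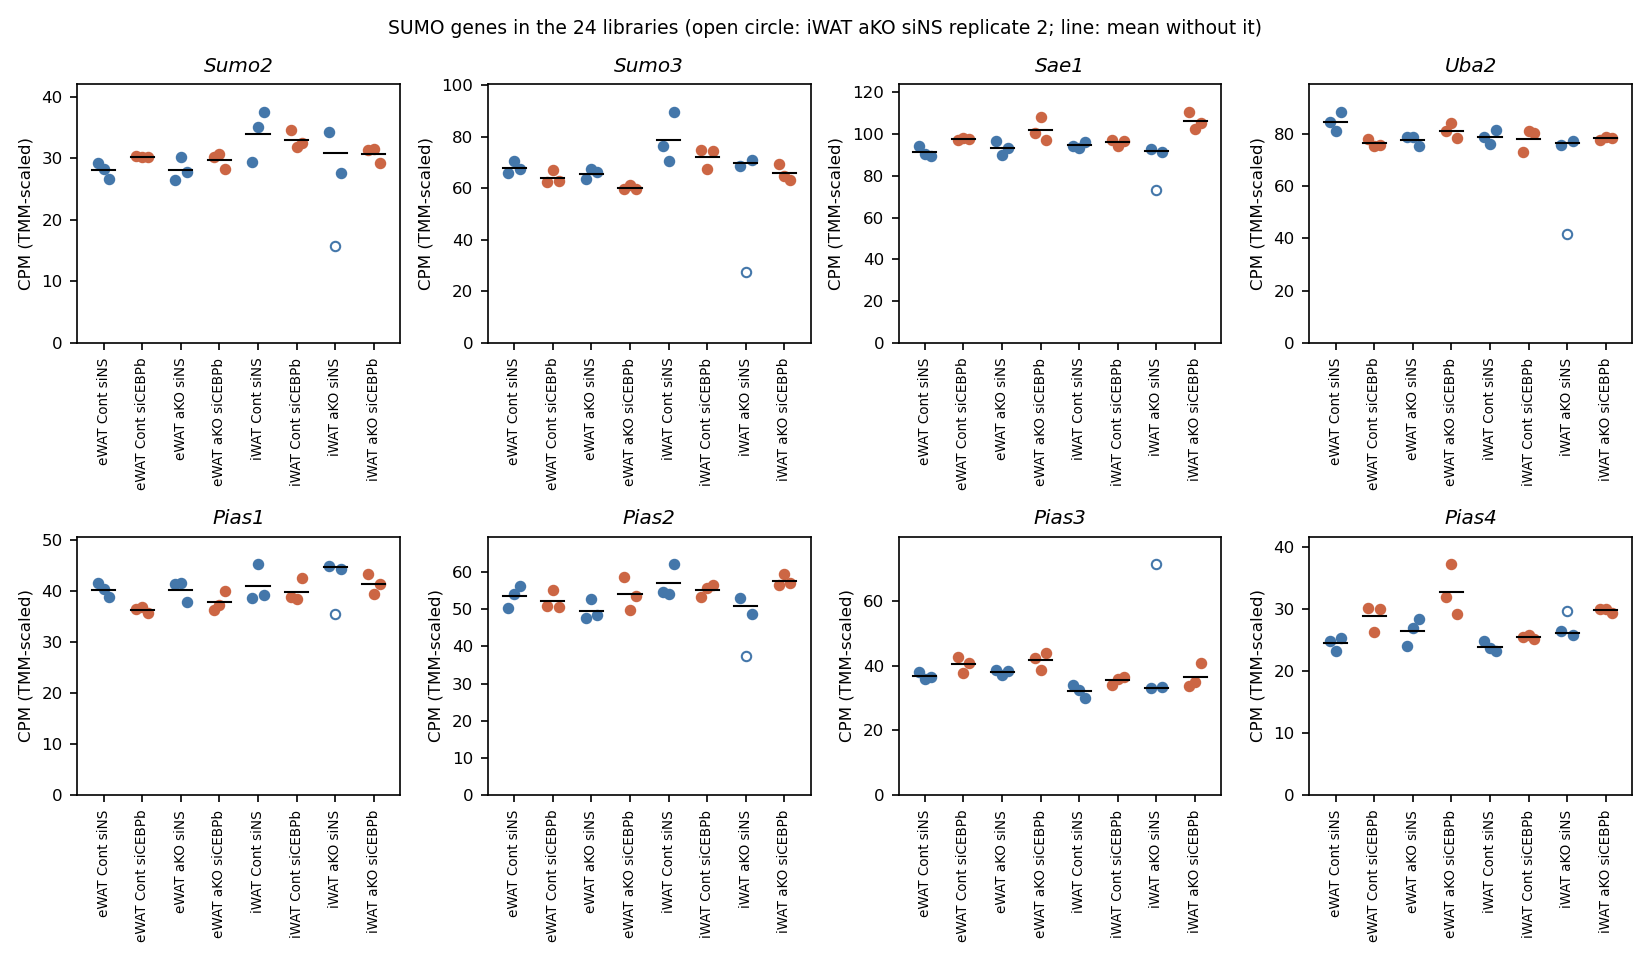
CPM (TMM-scaled, linear axes from 0) of the 8 genes in each of the 24 libraries, by group of 3, with siNS in blue and siC/EBPbeta in orange. Lines are group means without iWAT aKO siNS replicate 2, which is drawn as an open circle and departs from its group in most panels.

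Pias4, a PIAS ligase also known as PIASy that acts on several transcription factors, rose with siC/EBPbeta in eWAT cultures of both genotypes. In eWAT Cont it was 24.8, 23.2 and 25.4 CPM with siNS and 30.2, 26.3 and 30.0 CPM with siC/EBPbeta. The groups did not overlap, and the siRNA replicates 1 and 3 lay apart from replicate 2. The means were 24.5 ± 1.15 and 28.8 ± 2.18 CPM (SD, n = 3 each), a fold of 1.18 (95% interval 1.05 to 1.32, adjusted p = 0.0311 by edgeR's quasi-likelihood test). That call was lost without siNS replicate 1 (adjusted p = 0.0738) or replicate 2 (0.157) and without siC/EBPbeta replicate 1 (0.147) or replicate 3 (0.119). It was also lost without the filter on low counts (0.116) and with DESeq2 (0.0894). In eWAT aKO, Pias4 was 24.1, 27.0 and 28.4 CPM with siNS and 32.0, 37.2 and 29.3 CPM with siC/EBPbeta. Again the groups did not overlap, and replicate 2 was the highest of all 24 libraries. The means were 26.5 ± 2.22 and 32.8 ± 4.05 CPM (SD, n = 3 each), a fold of 1.23 (95% interval 1.10 to 1.38, adjusted p = 0.00361 by edgeR). Without that replicate 2 the log2 fold change was 0.20 in place of 0.30 and the call was lost (adjusted p = 0.0618).

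In iWAT cultures the Pias4 difference with siC/EBPbeta had the same sign but did not pass the test. In iWAT Cont it was 24.8, 23.8 and 23.2 CPM with siNS and 25.6, 25.8 and 25.2 CPM with siC/EBPbeta, a log2 fold change of 0.09 ± 0.088 (SE, adjusted p = 0.528 by edgeR) although the groups did not overlap. In iWAT aKO it was 26.5, 29.7 and 25.9 CPM against 30.1, 30.0 and 29.4 CPM, a log2 fold change of 0.18 ± 0.092 (SE, adjusted p = 0.145 by edgeR). The overlap there came from the shallow replicate 2, whose 29.7 CPM rested on 15 counts. Without it the log2 fold change was again 0.18 (adjusted p = 0.134 by edgeR).

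Sae1, the non-catalytic subunit of the activating enzyme, rose with siC/EBPbeta in iWAT aKO. It was 92.7, 73.2 and 91.3 CPM with siNS and 110.5, 102 and 105 CPM with siC/EBPbeta. The groups did not overlap, and the lowest value was that of the shallow library (37 counts). The means were 85.7 ± 10.9 and 106 ± 4.03 CPM (SD, n = 3 each). The fold fitted by edgeR was 1.17 (95% interval 1.07 to 1.29, adjusted p = 0.00670). It is not the ratio of these means, since the fit gives the shallow library less weight. Without the shallow library the log2 fold change was 0.20 ± 0.059 in place of 0.23 ± 0.065 and the adjusted p was 0.00780. The call was lost when the spread was estimated from these 2 groups alone (adjusted p = 0.209). In eWAT aKO, Sae1 was 96.8, 89.9 and 93.3 CPM with siNS and 100.5, 108 and 97.1 CPM with siC/EBPbeta, a log2 fold change of 0.13 ± 0.059 (SE, adjusted p = 0.0944 by edgeR). In the Cont groups of both depots Sae1 lay between 89.4 and 98.0 CPM.

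Uba2, whose product carries the catalytic cysteine of the activating enzyme, was not called in any of these comparisons. In eWAT Cont it was 84.4, 81.1 and 88.2 CPM with siNS and 77.9, 75.3 and 75.8 CPM with siC/EBPbeta. These groups did not overlap, and the log2 fold change was -0.15 ± 0.071 (SE, adjusted p = 0.133 by edgeR). Without the shallow library, which belongs to neither group but enters the shared estimate of the spread, the value was -0.16 and was called (adjusted p = 0.0204). The partner genes Sae1 and Uba2 had opposite signs in eWAT Cont, with Sae1 higher in all 3 siC/EBPbeta libraries (97.0, 98.0 and 97.7 CPM) than in any siNS library (94.2, 90.6 and 89.4 CPM). With all 24 libraries fitted neither gene was called there, and 1 of these 2 had an unadjusted p under 0.05 by edgeR. Groups did not overlap for 45.9% of all tested genes in that comparison. In the other 3 states the Uba2 log2 fold changes with siC/EBPbeta lay between -0.01 and 0.08.

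Both modifiers had higher means in iWAT than in eWAT in the Cont cultures with siNS. There Sumo3 was 66.0, 70.8 and 67.6 CPM in eWAT and 76.4, 70.6 and 89.6 CPM in iWAT. One iWAT library lay inside the eWAT range, and the log2 fold change was 0.21 ± 0.093 (SE, adjusted p = 0.280 by edgeR). Sumo2 in the same groups was 29.2, 28.4 and 26.6 CPM in eWAT and 29.4, 35.0 and 37.5 CPM in iWAT. The groups did not overlap, and the log2 fold change was 0.27 ± 0.094 (SE, adjusted p = 0.170 by edgeR). Without the shallow library, which is in neither group, both values passed the test (Sumo2 0.27 with adjusted p = 0.0461, Sumo3 0.21 with adjusted p = 0.0481). Apart from the shallow library, iWAT replicates 2 and 3 of this group held the fewest gene counts of all (10074487 and 8435494). Each had 39.5% of its reads outside genes, against 31.2% in replicate 1. They enter every comparison of iWAT Cont with siNS, and their part in these values was not tested.

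Pias3, a ligase first described as an inhibitor of STAT3, had the opposite sign between depots. In Cont with siNS it was 37.9, 35.8 and 36.5 CPM in eWAT and 34.0, 32.5 and 30.1 CPM in iWAT, with no overlap. The log2 fold change there was -0.19, and it was -0.18, -0.12 and -0.19 in Cont with siC/EBPbeta, aKO with siNS and aKO with siC/EBPbeta. None passed the test (adjusted p 0.297 to 0.728 by edgeR). In Cont with siNS and aKO with siC/EBPbeta, same-numbered libraries of the depots deviated together. In aKO with siC/EBPbeta the depots overlapped, and Pias3 was lower in iWAT in 3 of 3 same-numbered pairs. In Cont with siNS the same count followed from the lack of overlap. With a replicate block edgeR's adjusted p was 0.404 in Cont with siNS and 0.301 in aKO with siC/EBPbeta. That block fits 1 effect per replicate number over all 8 groups, so it is not a paired test of the depots. The value of -0.12 included the shallow library, where Pias3 was 71.2 CPM against 33.0 and 33.3 CPM in the other replicates, and it was -0.21 (adjusted p = 0.143) without it.

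Pias1 and Pias2 were not called in any of the 12 comparisons of 2 groups. Pias1 was 41.6, 40.4 and 38.9 CPM in eWAT Cont with siNS and 36.5, 36.9 and 35.6 CPM with siC/EBPbeta, with no overlap and a log2 fold change of -0.15 ± 0.070 (SE, adjusted p = 0.119 by edgeR). In iWAT aKO, Pias2 was 53.1, 37.6 and 48.7 CPM with siNS and 56.4, 59.4 and 57.0 CPM with siC/EBPbeta. The lowest of these was again the shallow library, and the log2 fold change was 0.20 ± 0.082 (SE, adjusted p = 0.0615 by edgeR) with it and 0.17 (adjusted p = 0.0769) without it.

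The genotype comparisons ask how RNA in aKO cultures differed from Cont. Of the 8 members, 0 passed the test in eWAT with siNS, where 20.4% of tested genes were called. The count was also 0 in eWAT with siC/EBPbeta (10.8% called), in iWAT with siNS (15.2%) and in iWAT with siC/EBPbeta (10.0%). At an unadjusted p under 0.05 the counts by edgeR were 0, 1, 2 and 2 of 8 in that order, where 31.0%, 21.5%, 27.3% and 20.5% of tested genes passed. DESeq2 called 0 in all 4, and limma voom called 1 (Pias4) in iWAT with siC/EBPbeta, where it called 17.4% of tested genes, and 0 elsewhere. The 95% intervals of the fold over all members lay within 0.829 to 1.22 in eWAT with siNS and within 0.825 to 1.27 in eWAT with siC/EBPbeta. In iWAT with siNS they lay within 0.737 to 1.27, and within 0.796 to 1.25 without the shallow library. In iWAT with siC/EBPbeta they lay within 0.800 to 1.32.

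Pias4 had the highest member value in each genotype comparison, with log2 fold changes of 0.12, 0.19, 0.13 (0.12 without the shallow library) and 0.23. The last, in iWAT with siC/EBPbeta, compared 25.6, 25.8 and 25.2 CPM in Cont with 30.1, 30.0 and 29.4 CPM in aKO. These groups were well apart, and the value was 0.23 ± 0.084 (SE, adjusted p = 0.0958 by edgeR, 0.0185 by limma voom). Sumo3 had the lowest value in iWAT with siNS, at -0.23 ± 0.102 (SE, adjusted p = 0.134 by edgeR) with the shallow library and -0.17 (adjusted p = 0.109) without it. Groups did not overlap for 1, 2, 3 and 3 of the 8 members in the 4 comparisons, against 39.3%, 28.9%, 25.8% and 31.6% of all tested genes. The third of these counts was again 3, against 45.0%, without the shallow library. The median member values were 0.0024, 0.06, -0.08 and 0.04 on the log2 scale, beside 0.0036, -0.0020, -0.00087 and -0.0016 over all tested genes.

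**Figure D3:**
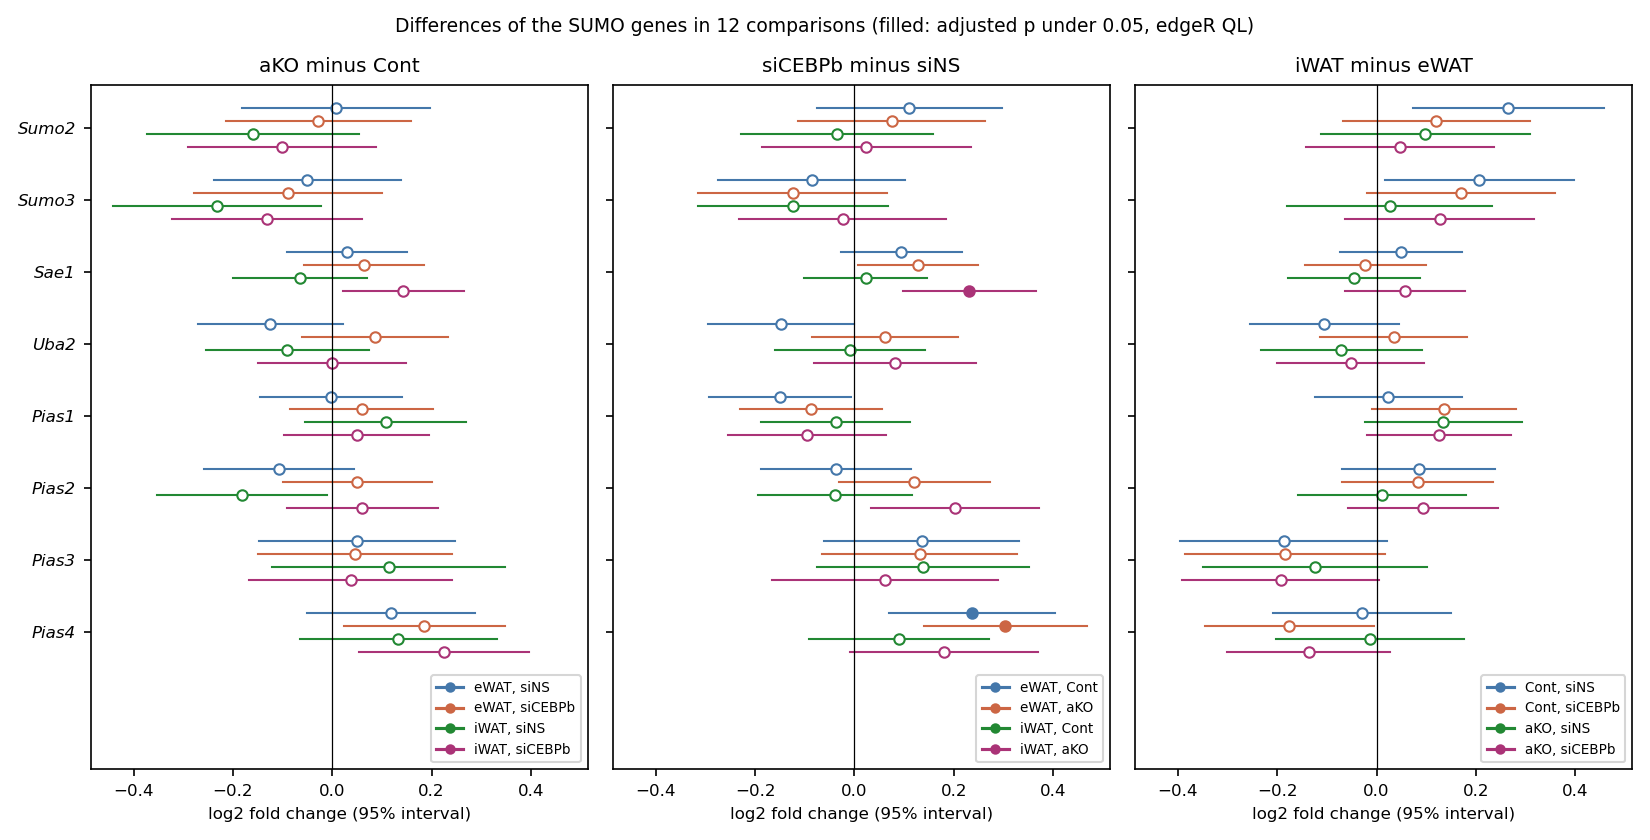
Log2 fold changes with 95% intervals for the 8 genes in aKO against Cont, siC/EBPbeta against siNS and iWAT against eWAT, each in the 4 states of the other factors. Filled symbols passed the adjusted p threshold, which only Pias4 in both eWAT siRNA comparisons and Sae1 in iWAT aKO did.

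With siC/EBPbeta, 1 of the 8 members was called in eWAT Cont (26.8% of tested genes were called), 1 in eWAT aKO (35.7%), 0 in iWAT Cont (24.3%) and 1 in iWAT aKO (31.3%). All 3 called values were higher with the siRNA, where 11.8%, 16.6% and 13.6% of tested genes were called higher. The count of 0 in iWAT Cont was also 0 at an unadjusted p under 0.05 by edgeR (34.2% of tested genes), and DESeq2 and limma voom called 0 there too. Groups did not overlap for 5, 4, 2 and 3 of the 8 members, against 45.9%, 46.3%, 42.8% and 35.1% of all tested genes. The last count was 6, against 58.6%, without the shallow library. The median member values were 0.03, 0.10, -0.02 and 0.07 on the log2 scale, beside 0.02, -0.0011, 0.0041 and -0.0062 over all tested genes. The share of members called was below that of all tested genes in each state.

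Markers of several cell types moved in the same siRNA comparisons. All 9 tested leukocyte markers of 10 listed fell in all 4 states. Their summed level, per 1000000 gene counts without scaling, went from 1639 to 2315 CPM with siNS to 301 to 348 CPM with siC/EBPbeta in eWAT Cont, from 1391 to 1446 to 81.8 to 173 CPM in eWAT aKO, and from 611 to 1380 to 68.6 to 151 CPM in iWAT aKO. In iWAT Cont, where no member was called, it went from 1554 to 2195 CPM with siNS to 290 to 312 CPM with siC/EBPbeta. Cd3e, which was listed but not tested, had 0 counts in all 24 libraries. Of 12 adipocyte markers 4, 10, 4 and 9 fell and 0 rose in eWAT Cont, eWAT aKO, iWAT Cont and iWAT aKO. Their summed level was 1872 to 2441 CPM against 1035 to 1433 CPM in eWAT Cont and 2696 to 3007 against 708 to 1330 CPM in eWAT aKO. It was 2216 to 2983 against 1312 to 1698 CPM in iWAT Cont and 3102 to 3526 against 819 to 1505 CPM in iWAT aKO. Of 7 smooth muscle and pericyte markers 5 rose in each state, and 1 fell in each state other than eWAT aKO. Their sums were 1486 to 1699 against 3066 to 3154 CPM in eWAT Cont and 1287 to 1325 against 3323 to 4502 CPM in eWAT aKO. They were 1599 to 2009 against 3201 to 3398 CPM in iWAT Cont and 570 to 1480 against 3835 to 4844 CPM in iWAT aKO. The lowest siNS sums in iWAT aKO other than in the shallow library were 1285 CPM for leukocyte and 1328 CPM for smooth muscle markers. Of 20 cell cycle genes 18, 5, 19 and 5 fell and 0 rose. Of 8 fibroblast and progenitor markers 2, 4, 3 and 5 fell and 1, 1, 1 and 0 rose, of 6 tested mesothelial markers 3, 0, 3 and 0 rose and 1, 0, 2 and 0 fell, and of 7 endothelial markers 2, 1, 2 and 1 rose and 1 fell in each state. The part of these shifts in the Pias4 and Sae1 values was not tested.

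Between depots, 0 of the 8 members were called by edgeR in any of the 4 states, where 1.20%, 3.35%, 0.352% and 1.44% of tested genes were called in Cont with siNS, Cont with siC/EBPbeta, aKO with siNS and aKO with siC/EBPbeta. The members at an unadjusted p under 0.05 numbered 2, 1, 0 and 0, against 15.1%, 19.3%, 11.6% and 17.6% of tested genes. DESeq2 called 0 throughout, and limma voom called 4 (Sumo3, Pias1, Pias3 and Pias4) in Cont with siC/EBPbeta, where it called 24.6% of tested genes, and 0 in the other states. The log2 fold changes of Sumo3 were 0.21, 0.17, 0.03 and 0.13, and the third was 0.08 (adjusted p = 0.607) without the shallow library. Groups did not overlap for 2, 5, 0 and 1 members, against 26.0%, 34.8%, 11.9% and 25.6% of all tested genes. The count for aKO with siNS was 3 (Sumo3 and Pias1 higher in iWAT, Pias3 lower) in place of 0, against 38.8%, without the shallow library.

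Averaging each effect over its 4 states, a comparison added after the data were seen, gave smaller standard errors and more calls. For aKO against Cont, where 32.4% of tested genes were called, 2 of the 8 members passed. Pias4 rose by 0.17 ± 0.043 (log2, SE, adjusted p = 0.00339 by edgeR), a call kept without any 1 of the 24 libraries. Sumo3 fell by 0.13 ± 0.047 (adjusted p = 0.0430 by edgeR), a call lost without any 1 of 12 libraries (adjusted p up to 0.0906), without a filter (0.0702) and with DESeq2 (0.0614), and kept without the shallow library (-0.11, adjusted p = 0.00965). Markers moved in the genotype comparisons too. With siNS, 6 and 3 of 12 adipocyte markers rose in aKO in eWAT and iWAT, and their sums were 1872 to 2441 CPM in Cont against 2696 to 3007 CPM in aKO and 2216 to 2983 against 3102 to 3526 CPM. Of 9 tested leukocyte markers 6 and 4 fell, with sums of 1639 to 2315 against 1391 to 1446 CPM and 1554 to 2195 against 611 to 1380 CPM. The 611 CPM was that of the shallow library, and the range was 1285 to 1380 CPM without it. With siC/EBPbeta, 0 and 1 adipocyte markers rose and 9 and 8 leukocyte markers fell. Mesothelial sums were 25.0 to 25.8 CPM in Cont and 6.11 to 7.80 CPM in aKO in eWAT with siNS. In the mean of 4 states 5 of 6 mesothelial, 6 of 7 endothelial and 3 of 7 smooth muscle markers fell, 1 endothelial marker rose, and of 8 fibroblast markers 5 rose and 2 fell. Of 20 cell cycle genes 17 fell in each siNS comparison, and 5 fell and 1 rose in each comparison with siC/EBPbeta. The part of these shifts in the Pias4 and Sumo3 values was not tested.

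For siC/EBPbeta against siNS the average gave 3 of 8 members, with 52.6% of tested genes called. Pias4 rose by 0.20 ± 0.043 (adjusted p = 2.29e-04 by edgeR) and Sae1 by 0.12 ± 0.030 (adjusted p = 0.00158 by edgeR), both kept without any 1 of the 24 libraries. Pias1 fell by 0.09 ± 0.036 (adjusted p = 0.0334 by edgeR), a call lost without any 1 of 5 libraries (adjusted p up to 0.0681). Without the shallow library Sumo3 (-0.12, adjusted p = 0.00474) and Pias3 (0.12, adjusted p = 0.00485) were called as well.

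For iWAT against eWAT the average gave 4 of 8 members, with 28.0% of tested genes called. Sumo2 and Sumo3 were each higher in iWAT by 0.13 (SE 0.048 and 0.047, adjusted p = 0.0376 for both by edgeR) and Pias1 by 0.10 ± 0.036 (adjusted p = 0.0318). Pias3 was lower in iWAT, at -0.17 ± 0.051 (adjusted p = 0.0129 by edgeR). These calls were lost without any 1 of 13, 10 and 7 libraries for Sumo2, Sumo3 and Pias1, and of 2 for Pias3, the iWAT aKO siNS replicates 1 and 3 (adjusted p = 0.0578 and 0.0514). Without the shallow library all 4 were called (Sumo2 0.14, Sumo3 0.15, Pias1 0.11 and Pias3 -0.19, adjusted p 1.53e-04 to 0.0123). Leaving that library out moved the Sumo3 depot value from 0.13 to 0.15 and its adjusted p to 8.06e-04.

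The siRNA effect was not shown to differ between genotypes for any member. In the interaction test 0 of 8 members were called in eWAT (6.34% of tested genes) and 0 in iWAT (3.51%), with 1 and 2 at an unadjusted p under 0.05 by edgeR (20.6% and 16.6% of tested genes) and 0 by DESeq2 and limma voom. Uba2 in eWAT had an interaction of 0.21 ± 0.101 (log2, SE, adjusted p = 0.235). In iWAT the values were 0.21 ± 0.089 for Sae1 (adjusted p = 0.215) and 0.24 ± 0.112 for Pias2 (adjusted p = 0.267). For Pias4 they were 0.07 in eWAT and 0.09 in iWAT (adjusted p = 0.806 and 0.789). Leaving out the shallow library gave 0.18 for Sae1 and 0.22 for Pias2 in iWAT (adjusted p = 0.180 and 0.223), and 0.10 for Pias4 (adjusted p = 0.735). The interaction of genotype with depot in siNS cultures was called by edgeR for 0 of 14785 genes (0%), with 415 genes (2.81%) and 0 members at an unadjusted p under 0.05, and for 0 genes by DESeq2 and limma voom.

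Several SUMO proteases, which remove SUMO from substrates or mature its precursors, rose with siC/EBPbeta. Of the 9 tested, Senp2 among them, 0, 5, 2 and 4 rose and 0, 0, 1 and 0 fell in eWAT Cont, eWAT aKO, iWAT Cont and iWAT aKO. Of all tested genes 26.8%, 35.7%, 24.3% and 31.3% were called in either direction in these comparisons, and this background holds for each list that follows. The shares called higher were 11.8%, 16.6% and 13.6% in eWAT Cont, eWAT aKO and iWAT aKO. Such shares are not reported here for iWAT Cont or for the fit without the shallow library. Without the shallow library 1, 6, 2 and 5 proteases rose and 0, 0, 1 and 0 fell, with 31.7%, 40.7%, 29.1% and 34.7% of tested genes called. The protease medians were 0.04, 0.23, 0.10 and 0.20 on the log2 scale, beside 0.02, -0.0011, 0.0041 and -0.0062 over all tested genes. Senp5, a nucleolar protease that prefers SUMO2 and SUMO3, went from 48.2 to 83.6 CPM in eWAT aKO, a log2 fold change of 0.80 ± 0.088 (SE, adjusted p = 3.74e-08 by edgeR). It was 0.23 (adjusted p = 0.0557) in eWAT Cont, and the difference between genotypes was called there (0.57, adjusted p = 0.00598) but not in iWAT (0.32, adjusted p = 0.209). Desi1, a protease for SUMO conjugates, fell in aKO with siNS from 56.2 ± 1.69 to 44.8 ± 1.03 CPM in eWAT (SD, n = 3, adjusted p = 1.99e-04 by edgeR). In iWAT its log2 fold change was -0.38 ± 0.068 (SE, adjusted p = 2.75e-04 by edgeR) and -0.37 without the shallow library (adjusted p = 1.53e-04). With siC/EBPbeta neither depot gave a call for Desi1 between genotypes, and its interaction was called in both (0.30 and 0.39, adjusted p = 0.0312 and 0.0141).

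Among 10 other SUMO ligases and cofactors, 0, 3, 0 and 1 rose and 0, 1, 1 and 1 fell with siC/EBPbeta in the same 4 states. None was called by edgeR in the 4 genotype comparisons, while Zfp451 fell in their mean (log2 fold change -0.12, adjusted p = 0.0297). With the shallow library left out, Mul1 rose (0.18) and Ranbp2 (-0.16) and Zmiz1 (-0.14) fell in aKO in eWAT with siNS (adjusted p = 0.0478, 0.0375 and 0.0397). Zmiz2, a PIAS-like coactivator, fell in eWAT aKO, iWAT Cont and iWAT aKO (log2 fold changes -0.46, -0.41 and -0.53). Of 5 SUMO-targeted ubiquitin ligases and known SUMO substrates, 1, 3, 1 and 2 rose and 0 fell. Sp100, a nuclear body protein, rose in all 4 states by 0.55, 0.36, 0.55 and 0.41, and Pml, the organizer of those bodies, rose in aKO cultures of both depots by 0.44 and 0.33. Of 8 activating enzymes of ubiquitin and other ubiquitin-like proteins, 0, 2, 1 and 2 rose and 1 fell in each state. The one that fell each time was Atg7, an activating enzyme of autophagy (log2 fold changes -0.36 to -0.43).

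**Figure D4:**
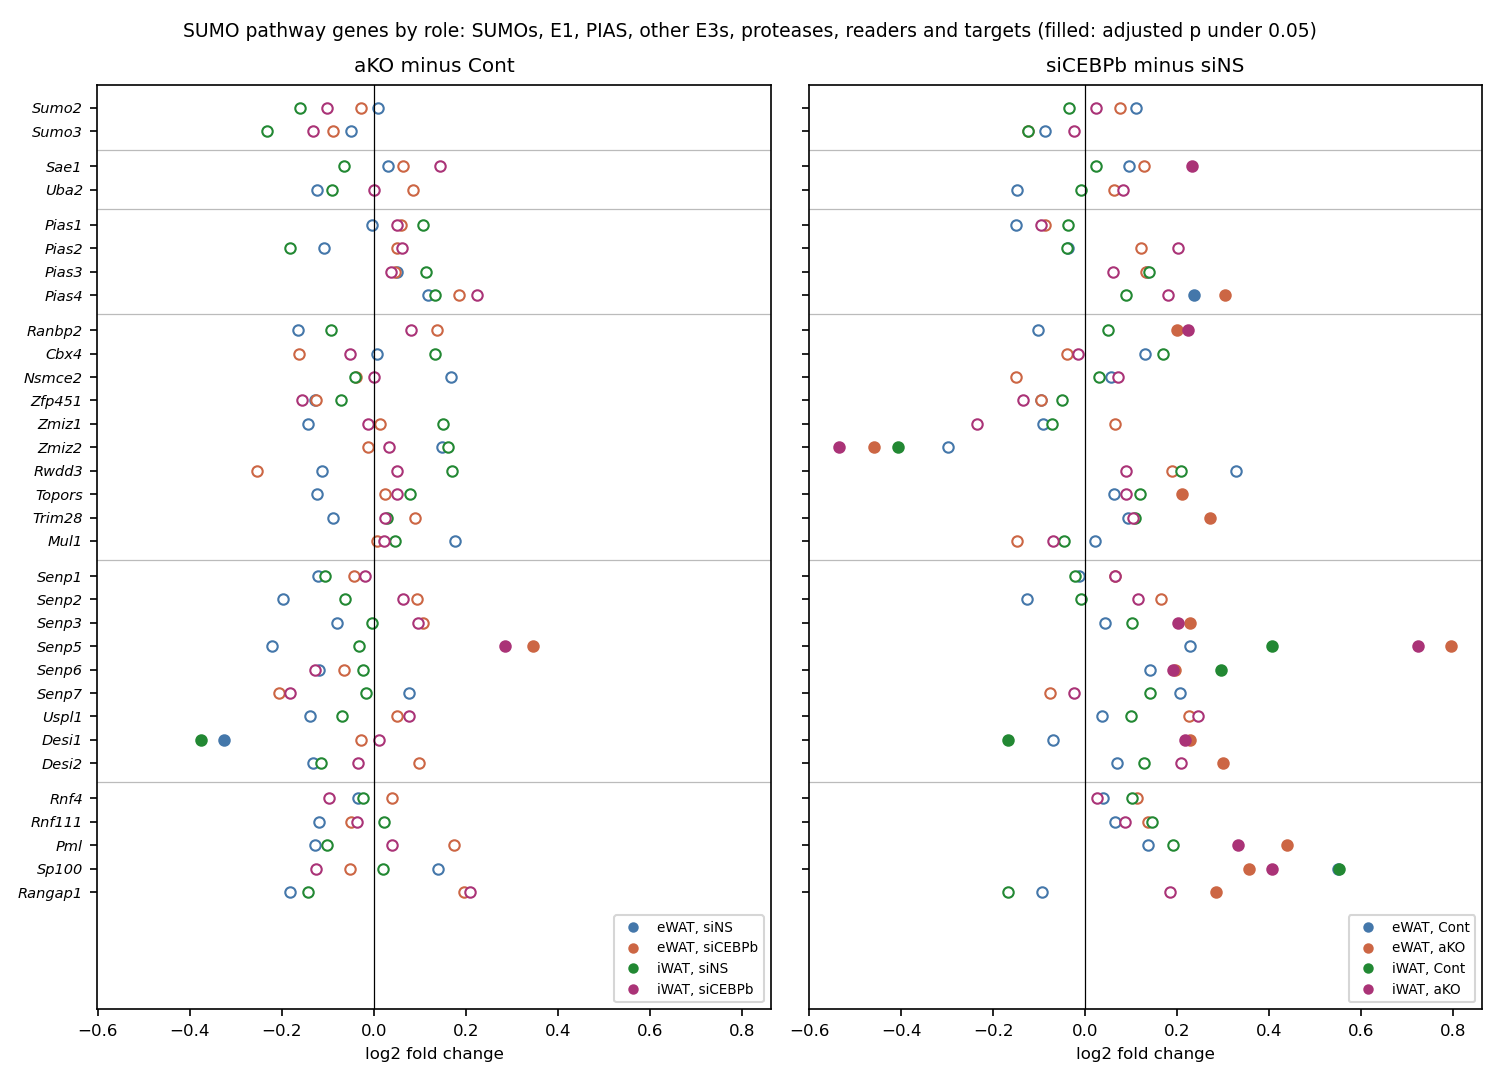
Log2 fold changes of SUMO pathway genes grouped by role, in aKO against Cont and in siC/EBPbeta against siNS, 1 point for each of 4 states. Filled points passed the adjusted p threshold. The highest value is that of Senp5 in eWAT aKO with siC/EBPbeta, at 0.80.

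For each member, the 3 genes with the most similar level pattern were found by Pearson's r of log2 CPM over the 23 deeper libraries, among 13128 genes. These libraries share the 8 groups, so r describes group differences and replicate scatter together. Pias4 was closest to Armc6 (r = 0.918), Mgat4b (0.908) and Bax (0.906), and Pias3 to Rccd1 (0.903), Trim3 (0.885) and Klhdc8b (0.872). Sae1 was closest to Rrp12 (0.883), Acta1 (0.881) and Actn4 (0.871). Sumo3 was closest to Tpt1 (0.885), Ptma (0.879) and Spcs2 (0.865), and Sumo2 to Rpl19 (0.834), Cfdp1 (0.828) and Rpl15 (0.827). For Pias2 they were Usp32 (0.837), Ap3m1 (0.828) and Fam91a1 (0.800). Pias1 and Uba2 had the loosest neighbours, at most 0.771 (Ptpn4) and 0.712 (Atp2a2). Among the members themselves, Sumo3 and Pias3 had the most opposed pattern (r = -0.84), followed by Sumo3 and Pias4 (-0.67), while Sae1 and Pias4 were the most alike (0.690).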

How the data were processed

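RNA was measured in 24 libraries of 8 groups. The deposited values are read counts per gene, not normalized, which the authors made with cutadapt 2.7, TopHat2 2.1.1 and HTSeq on GRCm38, per the submitters' processing notes. Whether counting used strand was not stated. HTSeq's 5 summary rows (27.5 to 39.5% of reads, 95.9% in 1 library) were left out. GENCODE M21 named 53360 genes and left 105 unnamed. The members, gene lists and comparisons were chosen with earlier results of these data known. Named genes are the 8 members, pathway genes called in a comparison or needed for a contrast with a member, and the 3 nearest genes of each member. Some genes of the lists are not reported here.

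Genes passing edgeR's filterByExpr (minimum count 10) were tested with edgeR 4.0.16 (TMM, quasi-likelihood, robust, 1 mean per group over all 24 libraries) under R 4.3.3. P-values were adjusted by Benjamini-Hochberg over all 14785 genes, with a threshold of 0.05. The script was tested on simulated counts. CPM were computed from TMM-scaled totals. Alternatives were DESeq2 1.42.0, its size factors, limma 3.58.1 voom, other filters, fits of 2 groups, a replicate block and each library left out. Precision is limited by 3 libraries per group and, in 1 of them, by depth. Replicate numbers were checked for pairing by correlating same-numbered deviations. For iWAT against eWAT all 3 correlations exceeded 0.1 in Cont siNS (0.270 to 0.425) and aKO siC/EBPbeta (0.424 to 0.748). In aKO siNS the 2 usable pairs gave 0.251 and 0.256, and Cont siC/EBPbeta gave 0.080 to 0.235. No genotype or siRNA comparison had all 3 above 0.1. The reported depot p-values, those of the mean depot effect included, treat the depots as unpaired.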

Additional observations from a re-analysis of the deposited data

How the results depend on the processing

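No called member value changed sign. Over 2504 alternative member values 91 changed sign, none of them called, and their largest absolute log2 fold change in the reported fit was 0.10. Calls were gained 25 times and lost 66 times. The replicate block changed no count of members called in any comparison.

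Counts of members called depended on the tool as follows. Limma voom gave 1 in place of 0 for aKO against Cont in iWAT with siC/EBPbeta, 4 in place of 1 for siC/EBPbeta in eWAT Cont, 2 in place of 1 in iWAT aKO, 4 in place of 0 for the depots in Cont with siC/EBPbeta, and 5 in place of 3 for the mean siRNA effect. Fits of the 2 groups alone gave 1, 2, 0 and 1 in the first 4 of these. Without a filter, and with DESeq2's test, siC/EBPbeta in eWAT Cont gave 0 and the mean genotype effect 1 in place of 2. The mean depot effect gave 2 without a filter and 1 with DESeq2 in place of 4. The cause was not tested.

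Leaving out 1 library gave 0 to 1 for aKO against Cont in eWAT with siC/EBPbeta (1 without aKO siC/EBPbeta replicate 3), 0 to 2 for siC/EBPbeta in eWAT Cont, 0 to 1 in eWAT aKO, 1 to 2 in iWAT aKO (2 without siNS replicate 1) and 0 to 2 for the depots in Cont with siNS (2 without iWAT aKO siNS replicate 2). The mean effects gave 1 to 2 for genotype, 2 to 5 for the siRNA and 0 to 4 for depot (0 without iWAT aKO siNS replicate 1).

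Counts over all genes differed by over 1.5 times in these cases. For genotype, iWAT with siNS gave 2243 and 718 with the groups alone, and with siC/EBPbeta 1483 and 2568 (voom). For the siRNA, eWAT Cont gave 3958 and 5938 (voom), and iWAT aKO 4624 and 2231 (groups alone). For depot, Cont siNS gave 178, against 542 (no filter), 852 (voom), 710 (groups alone) and 1123 without the shallow library (iWAT aKO siNS replicate 2). Cont siC/EBPbeta gave 496, against 3635 (voom), 3068 (groups alone) and 1713 without it, aKO siNS 52, against 138 (no filter), 1091 (voom), 0 (groups alone) and 822 without it, and aKO siC/EBPbeta 213, against 521 (no filter), 647 (voom) and 1478 without it. The interaction of genotype with the siRNA gave 938 in eWAT, against 2059 (voom), 1447 (groups alone) and 1677 without it, and 519 in iWAT, against 921 (no filter), 1235 (voom), 303 (groups alone) and 939 without it. That of genotype with depot gave 0, against 18 (no filter).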
